A study of Saccharomyces cerevisiae with 6 samples.

Results

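The 6 genes described here belong to budding yeast (*Saccharomyces cerevisiae*). They are enzyme genes of the last steps of tyrosine and phenylalanine synthesis and the first steps of the Ehrlich pathway, and a regulator gene, ARO80. They were taken by their names, TYR1, PHA2, ARO8, ARO9, ARO10 and ARO80, in the annotation of the array; the set was put together with earlier results of these data known. All 6 were among the 5379 named genes on the array, each with 1 spot, and all 6 were among the 4336 genes with a value on every array. The study compared strain S288C grown in rich glucose medium (YPD) at 25 °C with shaking and exposed to 5% methanol for 2 h, from an optical density of 1, with cultures grown for the same 2 h without treatment. Poly(A) RNA of the treated culture carried Cy5 and that of the untreated culture Cy3 on each of 3 two-colour arrays of independent biological samples. High and low laser power gave 2 scans of each array, and the dyes were in the same channels on all 3 arrays, which carry the replicate numbers 1 to 3. Values are log2 ratios of methanol over untreated; neither this direction, which is likely from the dyes, nor the log base of 2 is stated in the files. A dye effect particular to a gene therefore stays in its ratio, and a ratio of bulk RNA cannot tell fewer cells with a transcript from less transcript per cell.

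Tyrosine and phenylalanine are both made from prephenate, a product of the shikimate route. Prephenate dehydrogenase (TYR1) leads to the keto acid of tyrosine and prephenate dehydratase (PHA2) to that of phenylalanine, and the aromatic transaminases (ARO8 and ARO9) add the amino group. The Ehrlich pathway runs the other way: a transaminase removes the amino group of an amino acid, a decarboxylase such as that of ARO10 turns the keto acid into an aldehyde, and the aldehyde is reduced to a fusel alcohol or oxidised to a fusel acid. ARO80 encodes a zinc-cluster transcription factor that activates ARO9 and ARO10 when aromatic amino acids are present.

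TYR1, ARO9 and ARO10 were lower in methanol, each by at least 2-fold in the mean and on every array in sign, whereas PHA2, ARO8 and ARO80 did not pass the test. Thus 3 of 6 members were called lower and 0 higher by limma at a Benjamini-Hochberg adjusted p under 0.05. Over all 4336 genes tested, 24.2% were called lower and 26% higher, or 50.3% in either direction, so a call by itself is common on these arrays. The median log2 ratio of the 6 members was −0.67, beside −0.01 for all genes tested. Values below are means ± SD over n = 3 arrays, after the scans of an array were averaged and the array was centred on its median gene.

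TYR1 (YBR166C), the prephenate dehydrogenase gene of tyrosine synthesis, had log2 ratios of −0.92, −1.24 and −1.17 on arrays 1, 2 and 3. All 3 arrays lay well below 0. The mean was −1.11 ± 0.17 (limma adjusted p = 0.000543), which is a level 2.16-fold lower with a 95% interval from 1.75-fold to 2.66-fold. TYR1 was valued in 4 of 6 scans, at high power on all arrays and at low power on array 1 alone, where the deposited values of the high and the low scan were −1.21 and −0.73. The high-power values of the 3 arrays (−1.21, −1.29 and −1.19) lay closer together than those scans of array 1 did. After the scan medians were set equal, the high scan minus the low scan of TYR1 was −0.454 on array 1. Among all spots valued in both scans of array 1, 95% differed by less than 0.384.

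PHA2 (YNL316C), the prephenate dehydratase gene of phenylalanine synthesis, had log2 ratios of −0.32, −0.60 and −0.08. All 3 arrays were below 0, but array 3 lay close to it. The mean was −0.33 ± 0.26 and was not called (limma adjusted p = 0.0890), with a 95% interval of the log2 ratio from −0.67 to 0.00. The value of array 3 is the mean of scans of opposite sign, −0.48 at high and 0.28 at low power as deposited. Less the difference of the scan medians, the high scan lay 0.76 below the low scan there. Among all spots valued in both scans of array 3, 95% differed by less than 0.436. With the high-power scans alone PHA2 stood at −0.45 and was called lower (limma adjusted p = 0.0182).

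ARO8 (YGL202W) encodes the aromatic transaminase that serves synthesis and is also known from lysine synthesis. Its log2 ratios were −0.46, 0.53 and −0.29, so array 2 was above 0 and the others below. The scans of each array differed little: as deposited they were −0.48 and −0.53 on array 1, 0.45 and 0.52 on array 2, and −0.26 and −0.36 on array 3. The mean was −0.07 ± 0.53 and was not called (limma adjusted p = 0.784). Its SD was larger than that of 93.9% of genes tested. Without array 2 the mean was −0.37 and called lower (limma adjusted p = 0.0415), whereas it was 0.12 without array 1 and 0.04 without array 3. The 95% interval of all 3 arrays ran from −0.54 to 0.39.

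The other spots near ARO8 in the spot numbering were also high on array 2. Spots whose identifiers begin with the same 3 digits form 192 groups of 36; what those digits stand for is not given in the sources used here. In the high-power scans as deposited, the other spots of the ARO8 group had a median log2 ratio of 0.04, 0.58 and 0.13 on arrays 1, 2 and 3. On array 2 the group, ARO8 included, had 15 spots with a value at high and 4 at low power, so its median there rests on few spots. With each spot less the median of its whole group in the same scan, ARO8 stood at −0.46, −0.01 and −0.30, and its mean was −0.26 (limma adjusted p = 0.142). In the high-power scan of array 2 ARO8 was itself the median of its group, at 0.45, so the subtraction set that value to 0. Over all groups, the medians of scan-averaged spots spread more on array 2 (SD 0.282) than on arrays 1 and 3 (0.177 and 0.173). The part of spot position in the value of ARO8 was not tested.

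ARO9 (YHR137W), the gene of the second aromatic transaminase, known as the inducible form that starts the breakdown of aromatic amino acids, had log2 ratios of −0.99, −0.97 and −1.08. The 3 arrays lay within 0.112 of each other. The mean was −1.01 ± 0.06 (limma adjusted p = 0.000596), which is 2.02-fold lower with a 95% interval from 1.66-fold to 2.46-fold. Only 5.90% of genes tested had a smaller SD. All 6 scans gave a value, from −0.93 to −1.19 as deposited, and on every array the low-power scan was the lower, by 0.222, 0.217 and 0.166 after the scan medians were set equal. The group of spots that holds ARO9 had medians of −0.55 at high and −0.50 at low power on array 2, over 33 and 19 spots with a value, and with group medians subtracted ARO9 stood at −0.48 on array 2 against −0.98 and −1.06 on arrays 1 and 3. It was still called there, at −0.84 (limma adjusted p = 0.00394).

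ARO10 (YDR380W), the gene of the decarboxylase that acts on phenylpyruvate and other keto acids, was the lowest member, with log2 ratios of −1.12, −1.31 and −1.58. The highest of these arrays was below every array of ARO9. The mean was −1.34 ± 0.23 (limma adjusted p = 0.000320), or 2.53-fold lower with a 95% interval from 2.02-fold to 3.16-fold, and 2.26% of genes tested had a lower mean. All 6 scans gave a value, between −1.15 and −1.71 as deposited. The low-power scan lay below the high-power scan by 0.307 on array 2 and 0.224 on array 3, and on array 1 the high scan minus the low scan was −0.0114, in each case after the scan medians were set equal. The group of spots that holds ARO10 had medians of scan-averaged spots of 0.43, 0.50 and −0.08 on arrays 1, 2 and 3. With group medians subtracted ARO10 stood at −1.12, −1.62 and −1.46, and was still called lower at −1.40 (limma adjusted p = 0.000429).

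ARO80 (YDR421W), the gene of the activator of ARO9 and ARO10, had log2 ratios of 0.03, −0.06 and −0.02. The arrays lay on either side of 0. The mean was −0.02 ± 0.05 and was not called (limma adjusted p = 0.917), with a 95% interval from 0.813 to 1.20 times the untreated level. Its spot had a value at high power only, on all 3 arrays, so there was no second scan to compare. These are transcript ratios and hold no measure of the activity of the Aro80 protein.

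**Figure D1:**
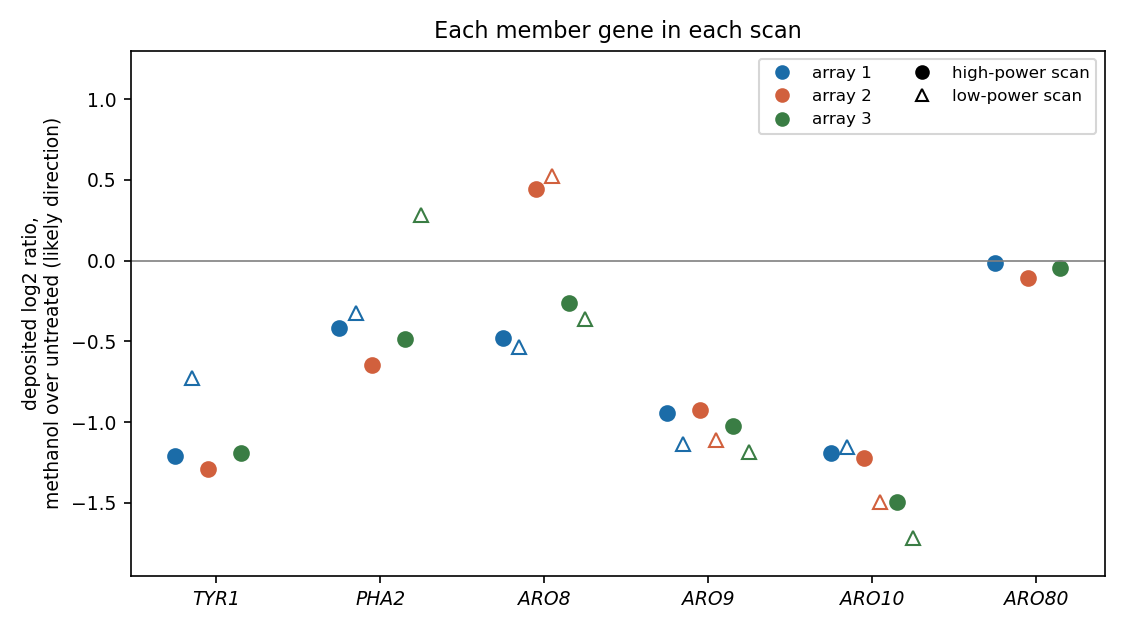
Deposited log2 ratio (methanol over untreated, likely direction, before centring) of each member in each scan; colours are arrays, filled circles high-power and open triangles low-power scans. All scans of TYR1, ARO9 and ARO10 lie below 0, ARO8 lies above 0 on array 2 alone, and PHA2 on array 3 has scans of opposite sign (−0.48 and 0.28).

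From lowest to highest mean the order was ARO10, TYR1, ARO9, PHA2, ARO8 and ARO80. The differences between members within an array were compared over all 15 pairs, of which 12 had the same sign on all 3 arrays. An exact two-sided sign-flip permutation test on 3 arrays cannot go below p = 0.25, so no pair could pass a threshold, and the adjusted p of those 12 pairs was 0.313. Next to each other in that order, PHA2 exceeded ARO9 by 0.68 ± 0.32 log2 units on 3 of 3 arrays, or by 0.45 ± 0.15 with the high-power scans alone. With identifier group medians subtracted this difference was 0.55, 0.07 and 0.87 on arrays 1, 2 and 3, or 0.50 ± 0.40. ARO8 and PHA2 did not differ beyond their spread (0.26 ± 0.75), nor did ARO80 and ARO8 (0.05 ± 0.57), and both pairs changed sign between arrays. The order of the means of ARO10, TYR1 and ARO9 was the same with the high-power scans alone (−1.24, −1.17 and −0.90). The signs of the differences of TYR1 on single arrays depended on the scans, since TYR1 had a low-power value on array 1 alone. TYR1 exceeded ARO10 by 0.20, 0.07 and 0.41, or 0.23 ± 0.17, but with the high-power scans alone the differences were −0.02, −0.07 and 0.30, with a mean of 0.07 ± 0.20. ARO9 minus TYR1 was −0.07, 0.27 and 0.09, or 0.10 ± 0.17, whereas with the high-power scans alone ARO9 lay above TYR1 on 3 of 3 arrays, by 0.27, 0.36 and 0.17 (0.27 ± 0.10).

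Of the other pairs, some set genes of neighbouring roles against each other. The transaminase genes differed on every array, with ARO8 above ARO9 by 0.53, 1.50 and 0.79 log2 units, or 0.94 ± 0.50. With identifier group medians subtracted these differences were 0.52, 0.47 and 0.76, or 0.58 ± 0.16. The branch genes from prephenate differed as well, with PHA2 above TYR1 by 0.60, 0.64 and 1.09, or 0.78 ± 0.27. The regulator gene lay above its targets, by 1.00 ± 0.08 for ARO80 minus ARO9 and 1.32 ± 0.21 for ARO80 minus ARO10. Of those targets, ARO10 lay below ARO9 on every array, by 0.13, 0.34 and 0.50, or 0.32 ± 0.18. Array 2 moved these pairs of ARO9 under the same subtraction: ARO80 minus ARO9 was 0.15 there and 0.68 ± 0.47 in the mean, and ARO9 minus ARO10 was 1.15 there and 0.56 ± 0.52 in the mean. All 3 genes of these pairs moved on array 2: ARO9 from −0.97 to −0.48, ARO10 from −1.31 to −1.62 and ARO80 from −0.06 to −0.33. Without the subtraction, the exact p of each of these 5 pairs was 0.25, the smallest possible.

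**Figure D2:**
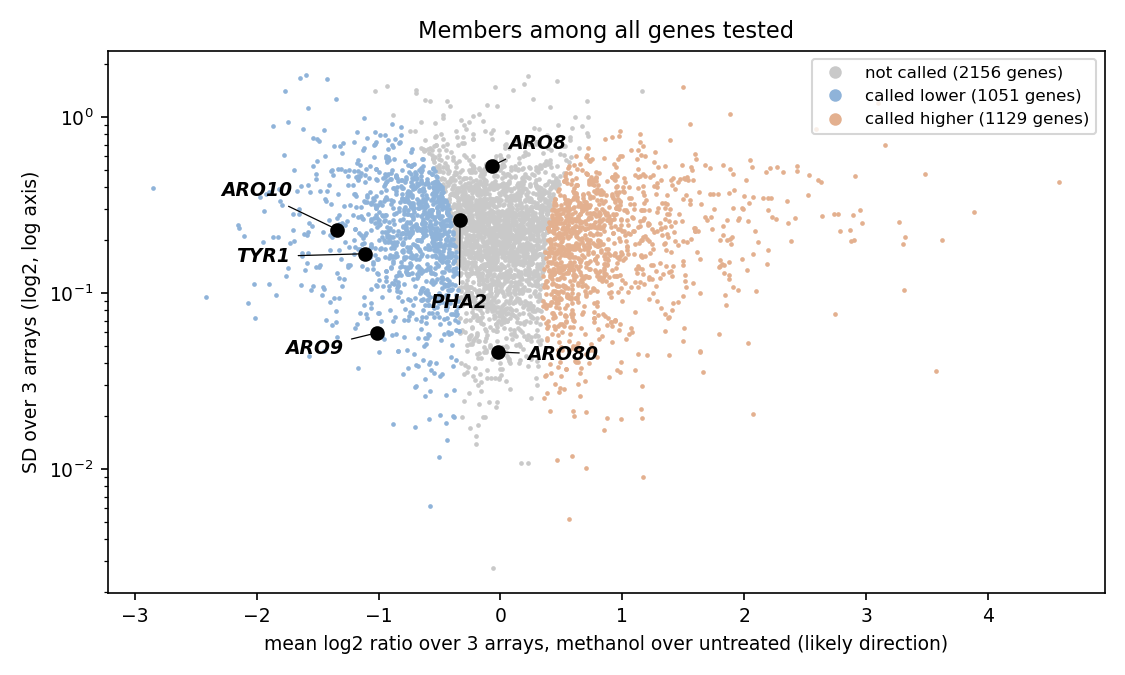
Mean log2 ratio over 3 arrays (horizontal) against its SD (vertical, log axis) for the 4336 genes tested, coloured by call, with the members in black. ARO10, TYR1 and ARO9 lie on the called lower side, ARO9 and ARO80 have small SDs (0.06 and 0.05), and ARO8 a large one (0.53).

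The genes with the pattern most like each member were taken as the 2 with the smallest Euclidean distance over the 3 log2 ratios, which measures likeness of ratios on 3 arrays and no more. For ARO9 these were VTC3 (distance 0.0596) and YOR283W (0.0917), and for ARO10 SSZ1 (0.134) and MNN10 (0.179). For TYR1 they were RVB1 (0.0895) and RPS22A (0.112), and for PHA2 RMD9 (0.0391) and RPL16B (0.0460). For ARO80 they were YRF1-2 (0.0436) and SSC1 (0.0499). For ARO8 they were ERC1 (0.0741), with log2 ratios of −0.47, 0.60 and −0.27, and SEC59 (0.102), with −0.45, 0.53 and −0.39. ERC1 and SEC59 were picked for their likeness to ARO8, so that they share its signs on the 3 arrays is no separate result.

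Upstream of the members, genes of the steps to chorismate and prephenate were lower. All 4 tested genes of that list were called lower (median −0.82): ARO7, the chorismate mutase gene that supplies prephenate to TYR1 and PHA2, at −1.87 ± 0.21, ARO2, the chorismate synthase gene, at −0.97 ± 0.06, and the genes of the first enzyme, ARO3 and ARO4, at −0.67 ± 0.31 and −0.44 ± 0.11. ARO1 was not analysed here. Without replicate 1 the calls of ARO3 (−0.53, limma adjusted p = 0.0843) and ARO4 (−0.38, 0.144) were lost, and that of ARO4 also without replicate 3 (−0.43, 0.105). In the tryptophan branch, which leaves chorismate before prephenate, 3 of 5 genes were called lower and 0 higher (median −0.49). TRP3 (−1.30 ± 0.11), TRP1 (−0.74 ± 0.18) and TRP4 (−0.49 ± 0.20) passed the test, while TRP2 (−0.16 ± 0.16) and TRP5 (0.00 ± 0.36) did not. TRP4 was not called without replicate 1 (limma adjusted p = 0.133) or 3 (0.110). TRP5 resembled ARO8 in its arrays, at −0.22, 0.42 and −0.21.

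Genes of other enzymes that form or decarboxylate keto acids, the steps of ARO8, ARO9 and ARO10, went both ways. Of 6 other transaminase and decarboxylase genes, 2 were called lower and 2 higher (median −0.04). BAT1, the mitochondrial branched-chain transaminase gene, fell (−0.82 ± 0.44), whereas its cytosolic counterpart BAT2 stood at 0.07 ± 0.31. The pyruvate decarboxylase genes PDC6 (1.56 ± 0.52) and PDC5 (0.67 ± 0.20) rose and PDC1 stood at −0.14 ± 0.09. THI3, a gene of this family known as a regulator of thiamine genes, fell (−0.39 ± 0.13). PDC5 lost its call without replicate 1 (limma adjusted p = 0.0587), and BAT1 and THI3 lost theirs without replicate 1 (0.0681 and 0.133) or replicate 3 (0.0545 and 0.195). The PDC genes are alike in sequence, and their spots may share signal.

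The dehydrogenase genes whose products can reduce or oxidise fusel aldehydes were mostly higher, opposite in sign to ARO9 and ARO10. Of 13 tested, 8 were called higher and 1 lower (median 0.79). The aldehyde dehydrogenase genes ALD4 (2.35 ± 0.33), ALD3 (1.95 ± 0.27), ALD2 (1.90 ± 0.21) and ALD6 (1.18 ± 0.47) rose, as did the reductase gene GRE2 (0.98 ± 0.33) and the alcohol dehydrogenase genes ADH5 (0.85 ± 0.58), ADH7 (0.79 ± 0.13) and ADH2 (0.74 ± 0.56). ADH6 fell (−0.48 ± 0.39), and ADH1, ADH3, ADH4 and SFA1 did not pass the test. These enzymes have many substrates besides fusel aldehydes. Without replicate 2, ADH5 was 0.51 and ADH2 0.43, both still called. Without replicate 1, ADH2 (limma adjusted p = 0.0859) and ADH6 (0.292) lost their calls, and ADH6 also did without replicate 3 (0.160). ALD5 had values on arrays 1 and 3 only (−0.47 and −0.14), below 0 unlike the other ALD genes. It was not in the test of genes valued on 3 arrays. For the esters and acids of fusel compounds 3 genes were tested, with the acetyltransferase genes ATF1 at 0.39 ± 0.29 (not called) and ATF2 at −0.46 ± 0.22 (called lower), and WAR1, the regulator of weak acid export, at 0.39 ± 0.23 (called higher). The calls of ATF2 and WAR1 were lost without replicate 1 (limma adjusted p = 0.0519 and 0.272) or 3 (0.137 and 0.175), and ATF1 was called without replicate 2 (0.0397). WAR1 also lost its call with the high-power scans alone, without centring and when values on at least 2 arrays were enough. With identifier group medians subtracted both ATF2 and WAR1 lost theirs.

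**Figure D3:**
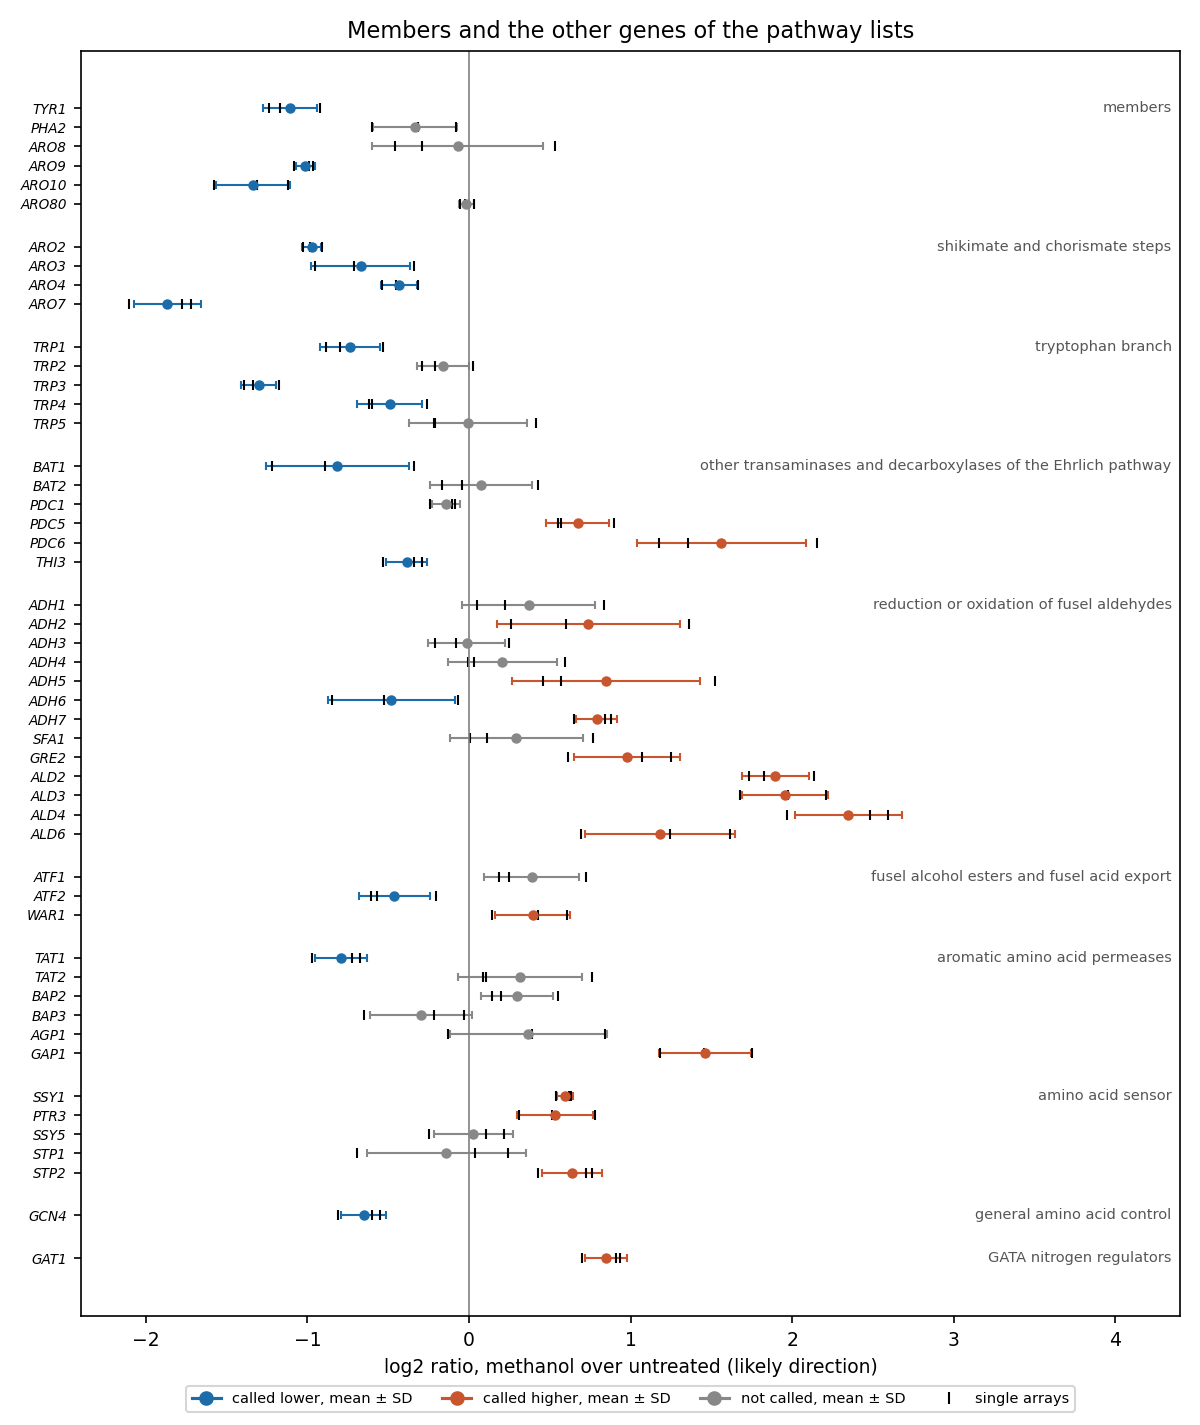
Log2 ratio (methanol over untreated, likely direction) of the members and of the other tested genes on the pathway lists; points and bars are the mean ± SD over 3 arrays, ticks the single arrays, and colours the call. The 4 genes of the shikimate and chorismate steps are all on the lower side, and the tested aldehyde dehydrogenase genes (without ALD5) lie between 1.18 and 2.35.

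Aromatic amino acids from the medium are known to induce ARO9 through Aro80. Among the permease genes that take them up, 1 of 6 was called lower and 1 higher (median 0.31). TAT1, a tyrosine and tryptophan permease gene, fell (−0.79 ± 0.16), and GAP1, the general amino acid permease gene, rose (1.46 ± 0.28). TAT2 (0.32 ± 0.38), AGP1 (0.37 ± 0.49), BAP2 (0.30 ± 0.22) and BAP3 (−0.30 ± 0.32) did not pass the test, and BAP3 was called lower without replicate 2 (−0.43, limma adjusted p = 0.0374). Of the 5 genes of the plasma membrane amino acid sensor and its transcription factors, 3 were called higher and 0 lower (median 0.53): the factor gene STP2 (0.64 ± 0.18) and the sensor genes SSY1 (0.60 ± 0.05) and PTR3 (0.53 ± 0.24). SSY5 (0.03 ± 0.24) and STP1 (−0.14 ± 0.49) were not called. Without replicate 1, STP2 (limma adjusted p = 0.0640) and PTR3 (0.0897) lost their calls.

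Regulators that act on these genes beside ARO80 were partly measured. GCN4, the activator gene of general amino acid control, which acts on many amino acid synthesis genes, had log2 ratios of −0.81, −0.60 and −0.55, a mean of −0.65 ± 0.14 (limma adjusted p = 0.00453). It was not called without replicate 1 (−0.57, limma adjusted p = 0.0556). GCN4 is known to be controlled mainly in translation, which a transcript ratio does not show. GAT1, a GATA factor gene of nitrogen regulation, was called higher at 0.85 ± 0.13 (limma adjusted p = 0.00148). GLN3, another GATA activator gene, had values on arrays 1 and 3 only (0.51 and 0.52), as had GCN2 (−0.08 and −0.13) and GZF3 (0.20 and −0.37). DAL80 had a value on array 3 alone (0.70), and none of these was in the test of genes valued on 3 arrays. When values on at least 2 arrays were enough, 3 GATA regulator genes were tested and 2 called higher. In that setting 2 general control genes were tested and 1 was called lower. URE2 and PDR12 were not analysed here.

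Over the lists as a whole, 44 genes other than the members were tested, of which 13 were called lower and 16 higher, with a median log2 ratio of 0.25. Over all genes tested, 24.2% were called lower and 26% higher, which is the background for each list count above. Across all genes tested, 35.9% were below 0 and 36.5% above 0 on all 3 arrays, and TYR1, PHA2, ARO9 and ARO10 were below 0 on all 3. The arrays held values for 5166, 4399 and 5339 named genes, and Pearson's r of the log2 ratios between arrays lay between 0.821 and 0.888 across genes, which are not independent replicates.

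**Figure D4:**
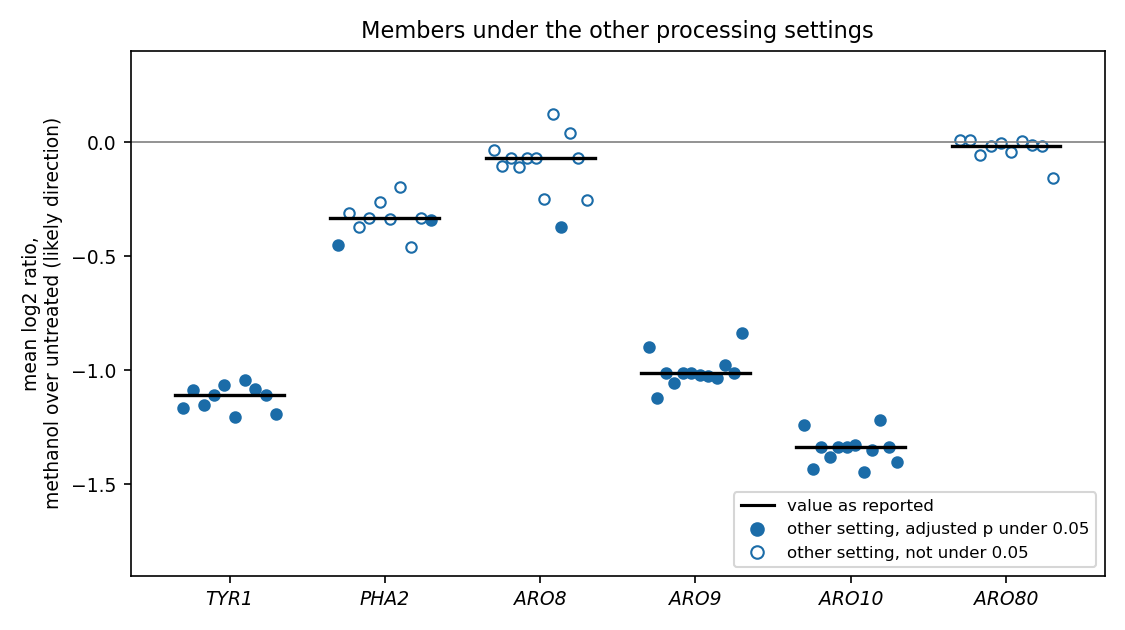
Mean log2 ratio of each member as reported (black line) and under each other processing setting that gave a value (circles, filled where the limma adjusted p was under 0.05). TYR1, ARO9 and ARO10 were called lower under all of them, PHA2 under 2, ARO8 under 1 and ARO80 under none.

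The calls of TYR1, ARO9 and ARO10 held under every setting that gave them a value, 10 for TYR1 and 12 each for ARO9 and ARO10. Their means ran from −1.20 to −1.04 for TYR1, from −1.12 to −0.84 for ARO9 and from −1.45 to −1.22 for ARO10.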

How the data were processed

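The deposited values are log2 ratios (log base and direction not stated; read as log2 of Cy5 over Cy3), with a column for every scan. LOWESS normalization was applied by the authors to spots with flag 0, per the labels; background correction and image software are not given in the sources used here. No spot intensities were used, so signal over background is unknown. The 6 scans held values for 1881 to 5842 of 6912 spots, and their medians lay between −0.03 and 0.01.

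The platform annotation named 1 gene for 5446 spots and none for 1466; all 5446 matched the R64 reference gene table by gene ID. The scans of an array were averaged per spot, identical copies of a spot counted once, spots averaged per gene, and each array centred on its median gene (medians −0.05, −0.05 and −0.02 before). For the 4336 genes valued on 3 arrays, limma 3.58.1 (R 4.3.3) gave the test (intercept against 0, eBayes, Benjamini-Hochberg over all of them, threshold 0.05); the fit was tested on simulated data. Differences between members had an exact sign-flip permutation test. The number of arrays, 3, limits the precision.

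The members and the 11 gene lists were chosen with earlier results of these data known. Genes named are all members, the genes of these lists and, per member, the 2 most alike. Lists are described by counts and medians. Alternatives varied the scans, centring, missing values, weights, prior, arrays and spot groups.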

Additional observations from a re-analysis of the deposited data

How the results depend on the processing

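Over the 12 alternatives, TYR1, ARO9 and ARO10 kept their direction and call wherever they had a value (TYR1, PHA2 and ARO80 had none with the low-power scans alone or with values in all 6 scans), and the number of members called lower ran from 2 to 4, with 0 higher in each. PHA2 was called lower with the high-power scans alone (−0.45, limma adjusted p = 0.0182) and with identifier group medians subtracted (−0.34, 0.0441), an alternative chosen after seeing the data, in which its low-power value on array 3 was itself the group median and became 0; over its alternatives its adjusted p ran from 0.0182 to 0.274. ARO8 ranged from −0.37 to 0.12 when arrays were left out, being above 0 without replicate 1 (0.12) or 3 (0.04) and called lower without replicate 2 (limma adjusted p = 0.0415). With array weights ARO8 stood at −0.25 (limma adjusted p = 0.203), with a weight of 0.477 for array 2 against 1.58 and 1.33 for arrays 1 and 3. ARO80, at −0.02 as reported, stood at −0.16 with identifier group medians subtracted (limma adjusted p = 0.287) and changed sign with the high-power scans alone (0.0074), with each scan kept and the array as a random block (0.0074) and without replicate 2, with a range from −0.042 to 0.0045 when arrays were left out.

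Of all genes, 485 were called lower and 431 higher with the low-power scans alone (1710 genes tested), and 517 and 428 with values in all 6 scans (1596 tested), where fewer genes were tested. Leaving out an array gave 594 to 1074 genes lower and 692 to 1156 higher, the fewest without replicate 1. Of 78 differences between members under other settings, 4 moved by over 1 SD: ARO80 exceeded ARO9 by 0.91 with the high-power scans alone, and with identifier group medians subtracted ARO80 minus ARO9, ARO9 minus ARO10 and ARO9 minus TYR1 were 0.68, 0.56 and 0.35. Of 256 counts of called list genes, 38 moved by over 1.5 times. Each array holds treated and untreated RNA, so the test of the log2 ratios against 0 is itself paired by array. There is a single group, and no other pairing was used.

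Without spot intensities, dim spots could not be told from bright ones. ARO80 rests on high-power scans alone, and TYR1 on the high-power scans of 3 arrays and 1 low-power value. Among the list genes, ARO7, PDC5, PDC6, ADH7, ATF2, GAP1, SSY1 and PTR3 had a value in 3 of 6 scans, 1 per array.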
